A study of Mus musculus with 8 samples.

Results

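Domains in which the histone variant H2A.X was higher in 2i medium than in serum, but which met no H2A.X domain gained on loss of DNMT1, were followed through 4 further comparisons in mouse embryonic stem (ES) cells. They were selected on the marks of the authors' lists: marked for 2i in the serum and 2i list, on chromosomes 1 to 19 without 6 and 8, and sharing no base with a domain marked for DNMT1 knockout (KO). Of 4628 2i domains on these 17 autosomes, 3593 were kept, 77.6% (Wilson 95% interval 76.4% to 78.8%). They are called unmet domains here, and the other 1035 met domains. The 6 deposited lists hold 25499 domains in all, and the 2i side of the serum list holds 6137 genome-wide. Both marks that chose the unmet domains are readouts of these data, so their presence in 2i and absence from the DNMT1 KO side are no findings.

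H2A.X was measured by native chromatin immunoprecipitation and sequencing, with chromatin cut by micrococcal nuclease and 0.5 µg of antibody. The 8 samples hold 1 library each. DNMT1 KO cells in serum, and wild-type cells in 2i, in PKCi and in SRCi medium, carry the strain label 129S6/C57B6. TDG control, TDG knockdown (KD), TKO control and TKO cells were all grown in serum and carry the label 129/Ola. The labels leave TKO unexplained. Serum cultures contained 15% fetal bovine serum, PKCi cultures the protein kinase C inhibitor Gö6976 at 5 µM, and SRCi cultures the Src inhibitor CGP77675 at 1.5 µM with the GSK3 inhibitor CHIR99021 at 3 µM. Wild-type serum cells and the DNMT1 control enter only through the lists. The labels do not say whether the KO, KD and TKO cells come from more than 1 clone.

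H2A.X is a form of histone H2A that is phosphorylated around DNA breaks and is also part of unbroken chromatin. DNMT1 copies DNA methylation to the new strand after replication, so that its loss leaves the genome poor in methylation. Medium 2i, which inhibits the kinases MEK and GSK3, also lowers DNA methylation in ES cells. TDG is a glycosylase that removes oxidised methylcytosine from DNA.

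Each list compares a pair of libraries, and each of its domains is marked for whichever library was enriched there. Which library comes first was read from the order of the conditions in the list's name, and every direction below rests on it. Each domain also has a signed score from the authors, with no stated unit, which falls below 0 toward 2i in the serum list. With 1 library per condition nothing could be checked against replicates, and no test was made. Wilson intervals cover counting error only, and neighbouring domains are not independent. Read depth is unknown. Positions are on mm9 and count from 1, and no genes are named because the gene tables at hand are on another build.

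Unmet domains were short. Their median length was 9 kb (quartiles 5 and 18 kb, range 1 to 323 kb), against 31 kb (13 and 62 kb, range 1 to 411 kb) for met domains. Together they spanned 56.9 Mb, 2.66% of the 2140 Mb of these autosomes counted from 3 Mb on, where met domains spanned 48.7 Mb or 2.28%. Domains of up to 10 kb made up 56.7% of unmet domains and 19.5% of their bases. Those of 11 to 50 kb made up 37.9% and 51.0%, and the 194 domains above 50 kb made up 5.40% and 29.5%. A shorter domain has fewer bases with which to meet another, so the rule itself favours short ones.

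**Figure D1:**
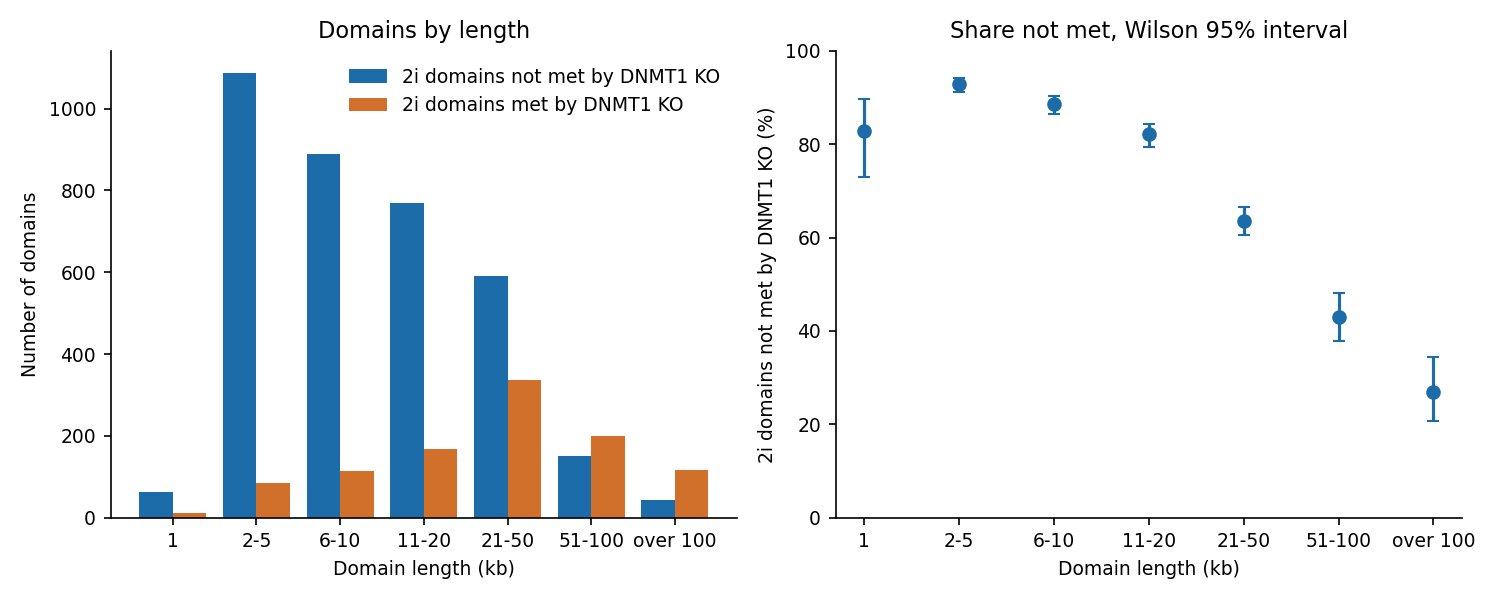
Left, number of 2i domains not met (blue) and met (orange) by DNMT1 KO in each length class in kb. Right, share of 2i domains not met, in percent, with Wilson 95% intervals; it was 92.8% at 2 to 5 kb and 27.0% above 100 kb.

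The share of 2i domains left unmet was 92.8% (91.2% to 94.2%) at 2 to 5 kb, 88.5% at 6 to 10 kb, 82.1% at 11 to 20 kb, 63.6% at 21 to 50 kb, 42.9% at 51 to 100 kb and 27.0% (20.7% to 34.4%) above 100 kb. The 76 domains of 1 kb broke this order at 82.9% (72.9% to 89.7%). Lengths above 50 kb were thus the only classes, of these 7, in which met domains outnumbered unmet ones. The median of the authors' score hardly separated the sets once length was held, except at 1 kb. At 2 to 5 kb the median was -27.0 in unmet and -27.1 in met domains, at 11 to 20 kb -19.3 and -19.5, and above 100 kb -17.9 and -18.6. At 1 kb met domains had the more extreme median, -60.8 in 13 domains against -44.5 in 63. The quartile toward 2i was further from 0 in met domains in every class but 6 to 10 kb. It was -34.9 in met and -30.5 in unmet domains at 2 to 5 kb, and -23.3 and -23.8 at 6 to 10 kb. The most extreme score was -183 in met and -75.0 in unmet domains. Over all lengths unmet domains had a median of -21.3 and met domains -19.0, as short domains score further from 0 in both sets.

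The longest unmet domain was chromosome 19, 33535001 to 33858000, at 323 kb and with a score of -19.1. In the PKCi list an 88 kb stretch of it was marked for 2i (score 13.7), and in the SRCi list an 81 kb stretch (15.3). It met neither the TDG nor the TKO list. A 254 kb domain on chromosome 5 (48419001 to 48673000, score -18.2) and a 225 kb domain on chromosome 19 (27858001 to 28083000, -18.5) also ranked among the 5 longest. Both overlapped a DNMT1 control domain, by 22 kb and 1 kb, and no domain of the other 4 lists. Domains of 253 and 222 kb on chromosome 17 (51055001 to 51308000, -18.1, and 39651001 to 39873000, -17.0) met the TKO control side over 24 and 148 kb and nothing else. Of these 5 long domains, none met the PKCi, SRCi, TDG KD, TDG control or TKO side.

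The highest scores toward 2i belonged to domains of 1 or 2 kb. They were chromosome 13, 12856001 to 12858000 (-75.0), chromosome 1, 135491001 to 135492000 (-72.0), chromosome 4, 118220001 to 118221000 (-69.0), chromosome 17, 6457001 to 6458000 (-65.5), and chromosome 17, 3573001 to 3574000 (-64.7). The place on chromosome 13 and the one at 6457001 on chromosome 17 were marked for 2i in both kinase inhibitor lists, with scores of 32.4 and 67.4 against PKCi and 21.3 and 30.8 against SRCi. The place on chromosome 1 was marked for 2i against SRCi only (70.0). That on chromosome 4 lay within a DNMT1 control domain of 3 kb (23.3), a TKO domain of 3 kb (-26.8) and a 2i domain over SRCi of 3 kb (48.0). It also lay within a PKCi domain of 1639 kb (4.26) and a TDG KD domain of 1561 kb (0.0466). The last one lay inside broad DNMT1 control, PKCi and SRCi domains of 1364, 1094 and 218 kb.

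Most unmet domains were in no domain of the DNMT1 list at all. This list was used by the rule, so its values are a description, and the labels do not say whether its control library is also the serum library. A DNMT1 control domain was met by 1062 unmet domains, 29.6% (28.1% to 31.1%), where 23.2% of all 4628 2i domains met one. Of the unmet domains 998 lay wholly inside, 27.8%, against 21.6% of all 2i domains. The other 2531 met neither side. By bases, the DNMT1 control side covered 18.4% of unmet domains and 45.4% of the chromosomes, and the share was below that of the chromosome on 17 of 17 autosomes. Coverage by this side was 28.6% within 10 kb of the centre of unmet domains, 32.0% about 50 kb away and 39.3% at 400 to 500 kb.

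The edge of the rule was fine. The rule is met by 1 base on a grid of 1 kb, and 37 met domains shared just 1 kb with DNMT1 KO. The first 3 in the order of chromosome names were chromosome 1, 7377001 to 7384000, chromosome 1, 153250001 to 153271000, and chromosome 12, 19081001 to 19085000, with serum list scores of -21.1, -18.7 and -26.4. On the other side of the threshold 4 unmet domains touched a DNMT1 KO domain without sharing a base. They were chromosome 14, 79358001 to 79395000 (37 kb, -17.0), chromosome 2, 126547001 to 126572000 (25 kb, -16.6), chromosome 3, 86035001 to 86054000 (19 kb, -18.3), and chromosome 9, 122918001 to 122925000 (7 kb, -22.0). None of these 4 met the PKCi, SRCi, TDG or TKO list. Few unmet domains lay so close: 49 (1.36%) were within 10 kb of a DNMT1 KO domain, 499 (13.9%) within 100 kb and 2039 (56.7%) within 1000 kb. The median distance was 793 kb (quartiles 233 and 1932 kb).

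The 3 unmet domains farthest from any DNMT1 KO domain all lay on chromosome 14. They were 105504001 to 105562000 at 17654 kb, 105702001 to 105708000 at 17508 kb and 104889001 to 104893000 at 17410 kb. All 3 met the SRCi side, the last also met the PKCi side, and the first met a TDG control domain of 6 kb (score 9.11). The longest unmet domain to meet the TDG control side, chromosome 14, 103536001 to 103722000, stood in the same stretch, 16057 kb from DNMT1 KO. It is 186 kb long and shares 1 kb with a TDG control domain (21.7).

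PKCi and SRCi media are each compared with 2i, so their lists and the serum list have 2i in common and a single 2i library is among the samples. What the lists share is therefore no independent result, and their values are given side by side. The PKCi side was met by 2031 unmet domains, 56.5% (54.9% to 58.1%), where 48.4% of all 2i domains met it. The SRCi side was met by 1875, 52.2% (50.6% to 53.8%), where 48.1% of all did. Met domains gave 20.4% and 34.1%. Wholly inside the PKCi side lay 1924 unmet domains (53.5%), and inside the SRCi side 1611 (44.8%), where 44.4% and 38.4% of all 2i domains did. By bases the PKCi side covered 29.6% of unmet domains, 3.96% of met domains and 84.4% of the chromosomes. For SRCi the values were 25.3%, 8.19% and 86.2%. On each of 17 autosomes, unmet domains were covered less than their chromosome and more than met domains by both sides. This contrast with met domains pools lengths and did not hold in every length class.

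**Figure D2:**
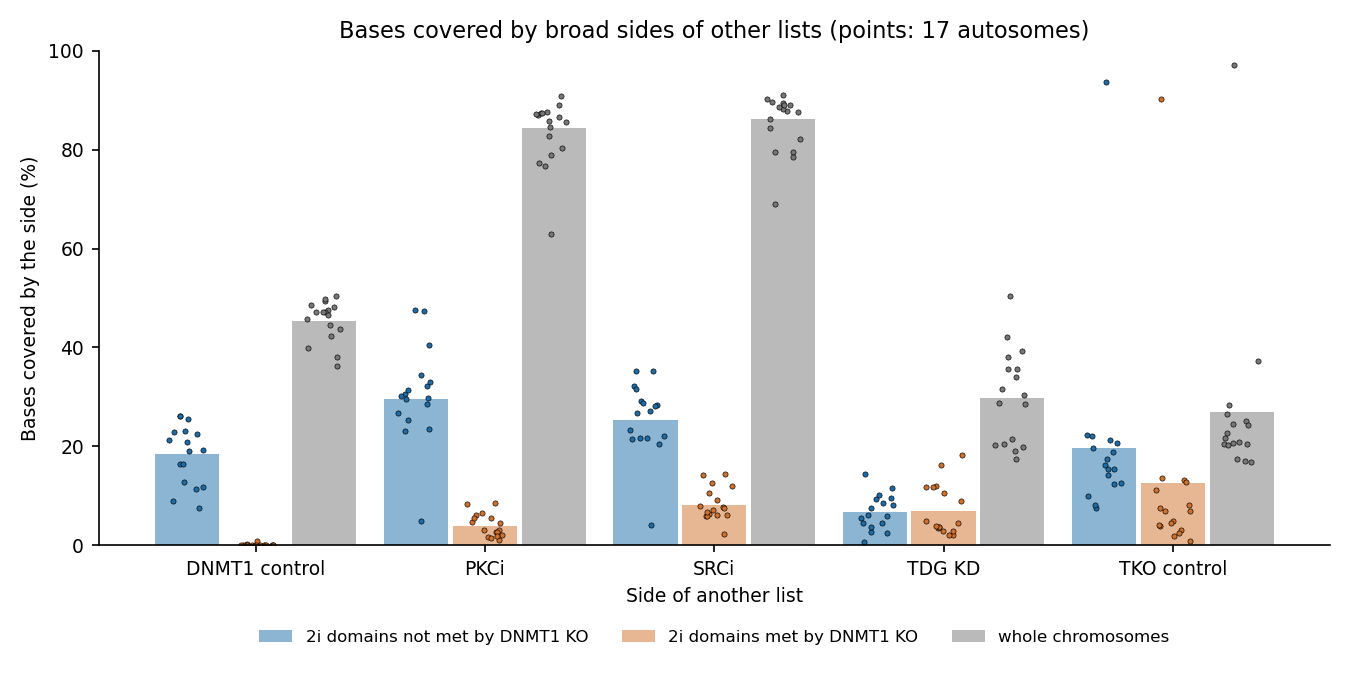
Percent of bases covered by 5 broad sides of other lists, in unmet 2i domains (blue), met 2i domains (orange) and whole chromosomes (grey); bars pool 17 autosomes and points are single autosomes. Unmet domains were covered at 29.6% by PKCi and 6.68% by TDG KD, against 84.4% and 29.8% of the chromosomes.

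Above 5 kb, coverage by these sides fell steeply with the length of an unmet domain. PKCi domains covered 68.3% of bases at 1 kb, 76.4% at 2 to 5 kb, 63.7% at 6 to 10 kb, 43.3% at 11 to 20 kb, 21.6% at 21 to 50 kb, 5.27% at 51 to 100 kb and 0.412% above 100 kb. SRCi domains covered 58.7%, 68.7%, 53.4%, 34.1%, 19.0%, 5.27% and 1.10% in turn. Met domains were at 41.3% and 47.0% at 2 to 5 kb and at 6.91% and 12.0% at 21 to 50 kb, and unmet domains were above them by both sides in the 4 classes from 2 to 50 kb. Met domains were the higher above 100 kb, at 0.873% for PKCi and 2.72% for SRCi, at 51 to 100 kb for SRCi (6.46%) and at 1 kb for PKCi (69.2%, 13 domains). Most short unmet domains were thus places marked for 2i against serum inside broad stretches marked for PKCi or SRCi against 2i. Those sides cover 84.4% and 86.2% of the chromosomes, so even short unmet domains were covered less than this background. The longest unmet domains lay almost wholly outside these sides. By their median, scores of PKCi and SRCi domains had the sign of the 2i domains in the same list (17.1 and 19.4), but were smaller. The median score was 5.29 in PKCi domains that held an unmet domain and 4.97 in all PKCi domains (quartiles 4.33 and 5.52). For SRCi these medians were 6.34 and 6.12 (quartiles 5.53 and 6.58). The other broad sides also had medians with the sign of the opposite side, but smaller in size. They were -2.59 for DNMT1 control against -6.56 for DNMT1 KO, and 0.263 for TDG KD against 7.49 for TDG control. TKO control had -0.578 against -4.39 for TKO. The neutral point of the score is not stated, so the sign alone gives no direction for these 5 sides.

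Around unmet domains, coverage by the PKCi side was 57.9% within 20 kb of the centre, 70.6% about 50 kb away and 80.6% at 400 to 500 kb. For the SRCi side the values were 54.4%, 72.5% and 81.4%. Met domains, which are longer, gave 17.2%, 44.8% and 76.6% for PKCi and 24.1%, 54.0% and 79.7% for SRCi. At 11 to 20 kb of length, coverage within 20 kb of the centre was 49.6% for unmet and 23.3% for met domains on the PKCi side, and 45.7% and 39.4% on the SRCi side. At 51 to 100 kb it was 4.77% and 0.684% for PKCi, but 3.82% and 4.45% for SRCi.

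A mark for 2i in the kinase inhibitor lists was rare in unmet domains. The 2i side over PKCi was met by 50, 1.39% (1.06% to 1.83%), against 2.87% of all 2i domains and 8.02% of met domains. The 2i side over SRCi was met by 45, 1.25% (0.937% to 1.67%), against 2.57% and 7.15%. These shares pool lengths. Over PKCi the unmet and met shares were 0.368% and 10.7% at 2 to 5 kb. They were 1.69% and 3.55% at 21 to 50 kb, and 20.9% and 27.6% above 100 kb. Over SRCi they were 0.552% and 8.33% at 2 to 5 kb, and 4.64% and 7.46% at 51 to 100 kb. Unmet domains were lower in every length class for both sides, but in proportion by less from 21 kb on than at 2 to 5 kb. By bases these sides covered 2.53% and 1.95% of unmet domains, 9.47% and 10.4% of met domains, and 0.288% and 0.296% of the chromosomes. Of the unmet domains, 27 (0.751%) were marked for 2i in both lists and 68 (1.89%) in at least 1. These joint counts were made in unmet domains only. The 68 had a median length of 21.5 kb and a median serum list score of -24.8. After the long domain on chromosome 19 the longest against PKCi spanned 198 kb on chromosome 14 (44696001 to 44894000) and 184 kb on chromosome 4 (146389001 to 146573000). The same domain on chromosome 4 (score -24.2) and 168 kb on chromosome 16 (42930001 to 43098000) followed against SRCi.

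The TDG and TKO lists use no 2i library. TDG KD domains, which are broad, were met by 363 unmet domains, 10.1% (9.16% to 11.1%), where 11.8% of all 2i domains and 17.8% of met domains met them. By bases TDG KD covered 6.68% of unmet domains and 6.84% of met domains, against 29.8% of the chromosomes. The share was below that of the chromosome on 17 of 17 autosomes and below that of met domains on 8. It ranged from 0.747% on chromosome 18 to 14.5% on chromosome 7.

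The pooled likeness of unmet and met domains did not hold at a given length. TDG KD covered 11.6% of unmet and 20.0% of met bases at 2 to 5 kb, 10.6% and 21.5% at 6 to 10 kb, 6.97% and 19.0% at 11 to 20 kb, 7.50% and 12.4% at 21 to 50 kb, and 4.14% and 6.63% at 51 to 100 kb. Above 100 kb the values were 0.565% and 1.19%. Unmet domains were thus lower in these 6 classes. At 1 kb, with 13 met domains, they were 15.9% and 15.4%.

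**Figure D3:**
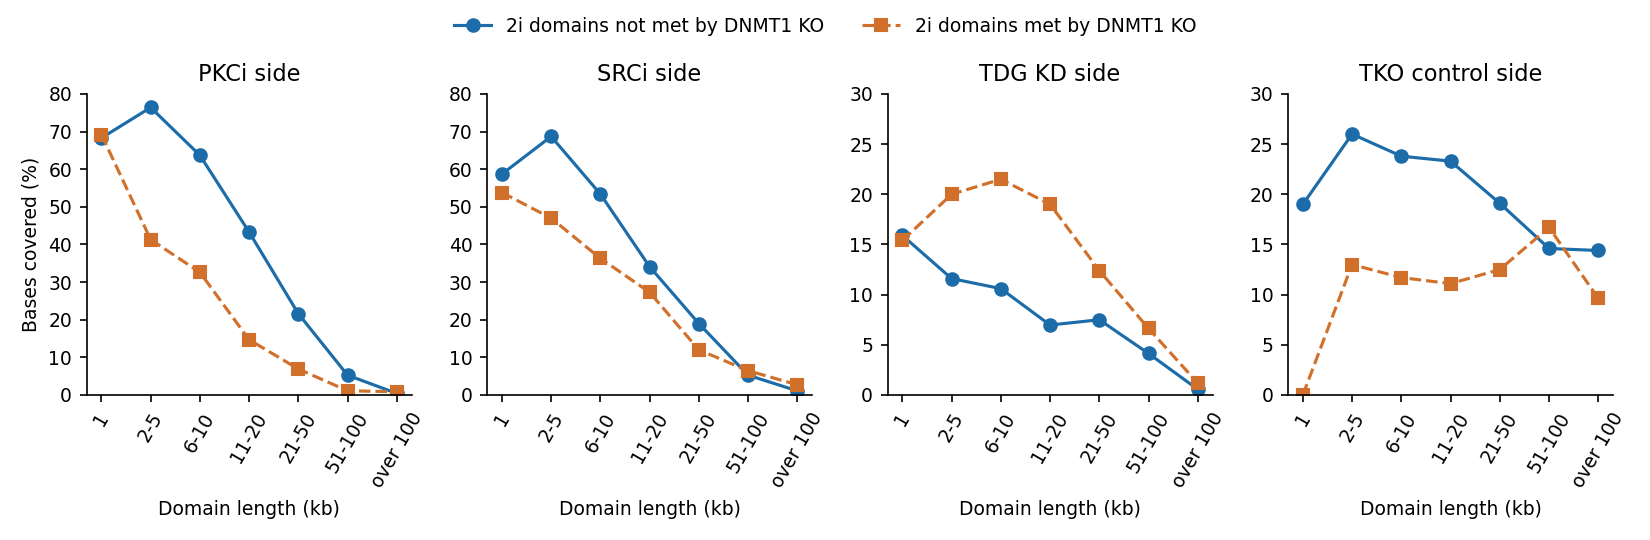
Percent of bases covered by the PKCi, SRCi, TDG KD and TKO control sides by domain length in kb, in unmet (blue) and met (orange) 2i domains; the vertical scale differs between panels. In unmet domains PKCi coverage went from 76.4% at 2 to 5 kb to 0.412% above 100 kb, and TKO control coverage from 26.0% to 14.4%.

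The surroundings differed more than the domains. At 400 to 500 kb from the centre TDG KD covered 15.7% around unmet domains and 35.6% around met domains, on either side of the 29.8% of whole chromosomes. Within 10 kb of the centre it covered 9.52% and 12.9%, and about 50 kb away 10.6% and 18.3%. Unmet domains thus lay where TDG KD domains were sparse on average, and met domains where they were more common. The serum side of the serum list, which the rule used, ran likewise, at 19.6% and 38.1% at 400 to 500 kb. DNMT1 control ran the other way, at 39.3% and 27.0%. For TDG KD the order at 400 to 500 kb was the same in the 6 length classes above 1 kb, from 13.7% and 41.7% at 11 to 20 kb to 17.3% and 26.7% above 100 kb. At 1 kb, with 13 met domains, it was 19.8% and 14.2%. For DNMT1 control its order held in the 4 classes from 2 to 50 kb and, narrowly, above 100 kb at 23.5% and 22.3%. The values were 25.1% and 25.9% at 51 to 100 kb, and 34.3% and 48.4% at 1 kb.

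**Figure D4:**
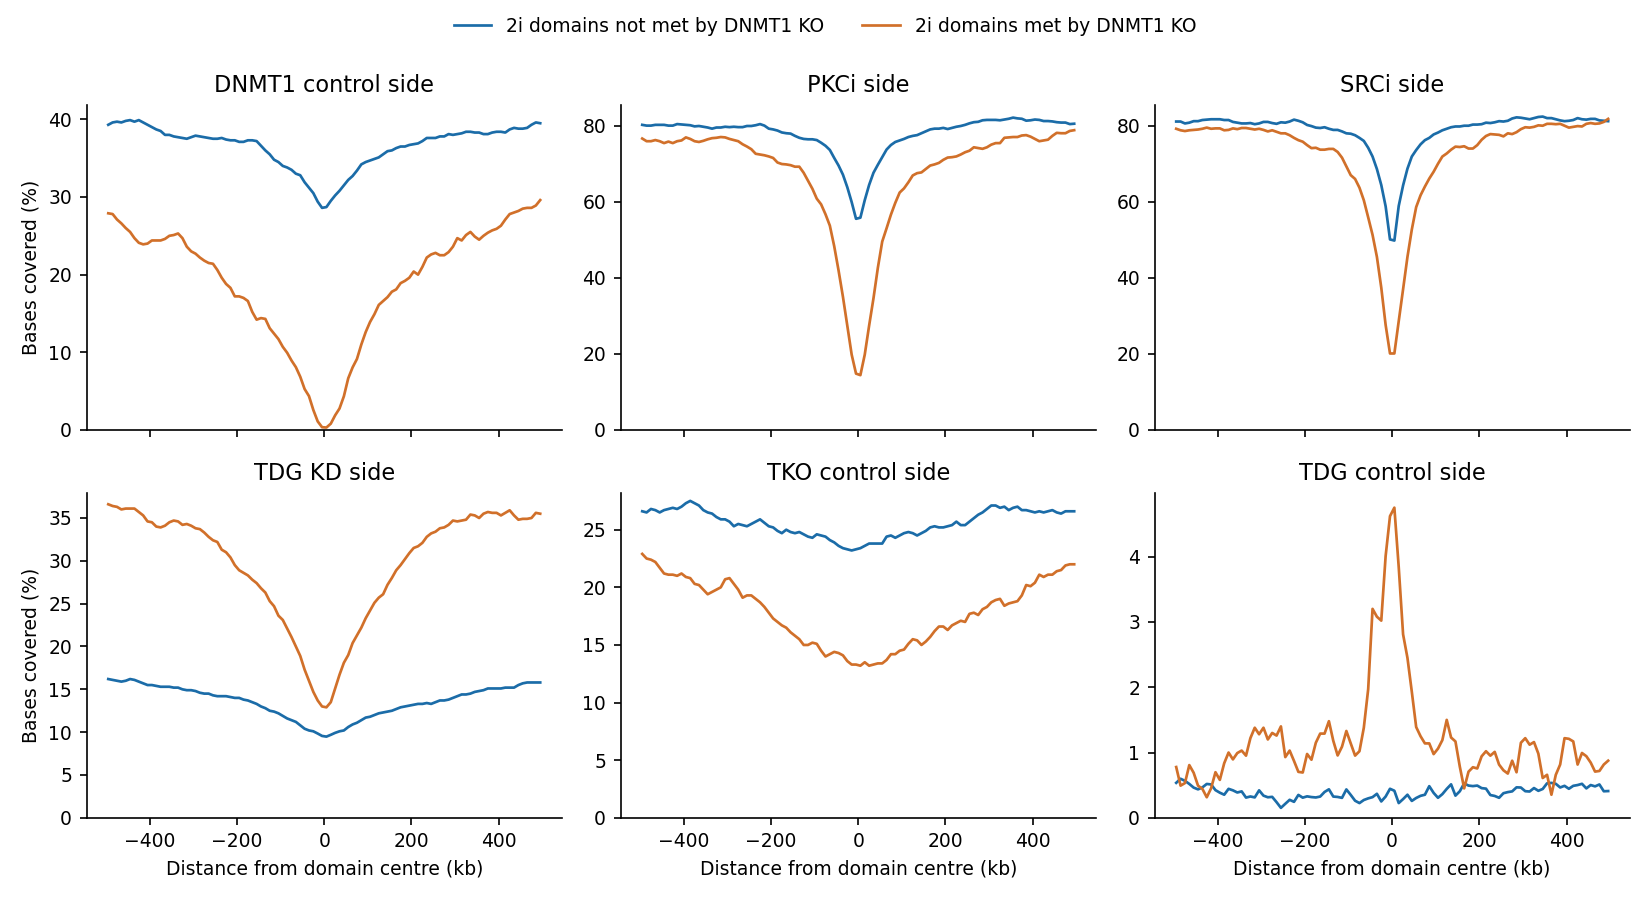
Percent of bases covered by 6 sides, in bins of 10 kb up to 500 kb from the centre of unmet (blue) and met (orange) 2i domains; each panel has its own vertical scale. At 400 to 500 kb TDG KD covered 15.7% around unmet and 35.6% around met domains, and at the centre TDG control covered 0.430% and 4.69%.

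The TDG control side, made of short domains, was met by 48 unmet domains, 1.34% (1.01% to 1.77%), against 3.67% of all 2i domains and 11.8% of met domains. It covered 0.645% of unmet bases, 6.74% of met bases and 0.289% of the chromosomes. Its coverage was lower in unmet than in met domains on 16 of 17 autosomes. These values pool lengths. The shares of unmet and met domains meeting TDG control were 0.368% and 14.3% at 2 to 5 kb, and 16.3% and 28.4% above 100 kb. At 11 to 20 kb the side covered 0.601% of unmet and 0.874% of met bases. Unmet domains were lower in every length class, but in proportion by less above 5 kb than at 2 to 5 kb. Coverage within 10 kb of the centre was 0.430% for unmet and 4.69% for met domains, about 50 kb away it was 0.314% and 2.08%, and at 400 to 500 kb 0.488% and 0.740%. Around unmet domains the centre was thus above the values 50 kb away and below those at the outer edge. Of the 12.7% of TDG control domains that held part of an unmet domain, the median score was 8.15, against 7.49 for all. After the domain on chromosome 14 named above, the longest unmet domains to meet this side spanned 147 kb on chromosome 14 (52186001 to 52333000) and 144 kb on chromosome 19 (9440001 to 9584000).

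TKO control domains were met by 873 unmet domains, 24.3% (22.9% to 25.7%), where 22.6% of all 2i domains and 16.6% of met domains met them. The share in unmet domains is thus near that of all 2i domains, most of which are unmet. They covered 19.7% of unmet bases, 12.5% of met bases and 27.0% of the chromosomes. Chromosome 11 stands apart in this list, with 97.1% of its length, 93.7% of its unmet bases and 90.2% of its met bases on the TKO control side. Without it the values were 16.0%, 6.88% and 22.9%, and 20.3% of unmet domains met the side. Unmet domains were covered less than their chromosome on 16 of 17 autosomes, chromosome 17 being the exception at 21.3% against 20.9%.

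Coverage by the TKO control side varied less with length than that by the other broad sides. It was 26.0% at 2 to 5 kb, 23.3% at 11 to 20 kb, 14.6% at 51 to 100 kb and 14.4% above 100 kb in unmet domains. The same classes of met domains gave 13.0%, 11.1%, 16.7% and 9.64%. Without chromosome 11 the unmet values were 22.3%, 19.0%, 10.0% and 14.4%, and the met values 3.55%, 5.37%, 10.1% and 5.47%. The dip at the centre was shallow, at 23.4% within 10 kb and 26.6% at 400 to 500 kb.

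TKO domains were met by 33 unmet domains, 0.918% (0.655% to 1.29%), against 2.48% of all 2i domains and 7.92% of met domains. They covered 0.986% of unmet bases, 3.63% of met bases and 0.415% of the chromosomes. By length, the shares of unmet and met domains meeting TKO domains were 0.920% and 23.8% at 2 to 5 kb. They were 3.31% and 6.97% at 51 to 100 kb, and 9.30% and 14.7% above 100 kb. Unmet domains were lower in every length class. The longest unmet domains to meet TKO domains spanned 144 kb on chromosome 19 (9440001 to 9584000), 118 kb on chromosome 4 (121643001 to 121761000) and 111 kb on chromosome 5 (15112001 to 15223000). On chromosome 4 the TKO domain covered 78 of the 118 kb, and a DNMT1 control domain covered all of them.

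Of the unmet domains, 4 met both TDG control and TKO. Chromosome 1, 90108001 to 90209000, at 101 kb and a score of -29.4, was marked for 2i over its whole length against PKCi (18.3) and against SRCi (21.5). A TKO domain covered 99 of its 101 kb (-5.38), a TDG control domain 13 kb (6.66) and a DNMT1 control domain 16 kb (-2.51). Chromosome 5, 15112001 to 15223000, had a score of -60.9 over 111 kb and was marked for 2i over 109 kb against PKCi (27.5) and over all of it against SRCi (59.9). It overlapped both sides of the TDG and TKO lists by 1 or 2 kb each. Chromosome 15, 74913001 to 74934000, at 21 kb and -55.5, lay wholly in TKO and SRCi domains and shared 2 kb with a TDG control domain (39.4). In the PKCi list it met both sides, with 5 kb marked for 2i (25.7) and 13 kb in a PKCi domain of 1992 kb (4.13). Chromosome 19, 9440001 to 9584000, scored -16.6 and overlapped both sides of both lists, led by 83 kb of TKO control and 26 kb of TDG control.

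Unmet domains that met the DNMT1 control side had other shares than the rest in some lists. TKO control was met by 376 of the 1062 that met DNMT1 control, 35.4% (32.6% to 38.3%), and by 497 of the other 2531, 19.6% (18.1% to 21.2%). PKCi was met by 73.6% (70.9% to 76.2%) and 49.3% (47.4% to 51.3%), and SRCi by 64.4% and 47.1%. For TDG KD the shares were 8.85% (7.29% to 10.7%) and 10.6% (9.49% to 11.9%), and their intervals overlap. Those that met DNMT1 control had a median length of 7 kb, and those that met no DNMT1 domain 10 kb. The shares above pool lengths, and were not compared at a given length. DNMT1 control was met by 36.2% of unmet domains at 2 to 5 kb, 10.6% at 51 to 100 kb and 23.3% above 100 kb.

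Read over the PKCi, SRCi, TDG and TKO lists together, unmet domains fell most often into 4 combinations. The most frequent was PKCi with SRCi and no domain of the other lists, with 951 domains (26.5%), a median of 6 kb and a median score of -23.2. The longest of them spanned 92 kb on chromosome 4 (108954001 to 109046000), and 75 and 65 kb on chromosome 18 (6058001 to 6133000 and 9800001 to 9865000). Each of these 3 shared 6 kb or less with PKCi and with SRCi. Met domains had this combination in 5.99%.

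No domain in any of the 4 lists was met by 785 unmet domains (21.8%), with a median of 16 kb, 18.9 Mb in all and a median score of -19.4. Among met domains 35.0% were of this kind. Its longest after the long ones on chromosomes 5 and 19 was chromosome 1, 162360001 to 162550000, at 190 kb, which lay 32 kb from DNMT1 KO. Of the 785, 687 also missed the DNMT1 control side, so that 19.1% of unmet domains (16.8 Mb) appeared in the serum and 2i list alone.

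PKCi and SRCi with TKO control came next, with 378 domains (10.5%), a median of 6 kb and 187 of them on the DNMT1 control side. Met domains had this combination in 1.26%. The longest unmet domains of this kind spanned 78 kb on chromosome 11 (11305001 to 11383000), and 65 and 47 kb on chromosome 14 (83896001 to 83961000 and 125123001 to 125170000). The one on chromosome 11 shared 12 kb with PKCi and 2 kb with SRCi, and those on chromosome 14 lay wholly inside both. PKCi alone held 350 domains (9.74%) with a median of 8 kb, against 3.77% of met domains. It was led by 173 kb on chromosome 2 (105569001 to 105742000), 94 kb on chromosome 7 (10565001 to 10659000) and 79 kb on chromosome 19 (39277001 to 39356000). Each of these 3 shared 10 kb or less with PKCi.

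Chromosome 19 carried unmet domains most densely. There they covered 6.74% of the length, with 26.1 domains per 10 Mb and a median of 12 kb. The other 16 autosomes had 1.65% (chromosome 7) to 3.98% (chromosome 17), and chromosome 14 came second by number at 24.5 per 10 Mb. By number this density was not particular to unmet domains. All 2i domains were also densest on chromosome 19, with 193 in 58.3 Mb, where chromosome 14 had 346 in 122 Mb. Of those 193, 78.8% (72.5% to 83.9%) were unmet, near the 77.6% of all 17 autosomes. Met domains, too, were most frequent there by number per length. Met domains covered 3.36% of chromosome 19 and DNMT1 KO domains 3.71%, both within the range of the other autosomes. PKCi covered 62.9% of chromosome 19 and SRCi 69.0%, the lowest of the 17, and just 4.98% and 4.04% of its unmet bases.

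The share of 2i domains left unmet went from 67.3% (60.5% to 73.5%) on chromosome 9 to 86.4% (82.4% to 89.6%) on chromosome 14. The highest shares, on chromosomes 14 and 10 (86.3%), came with DNMT1 KO coverage of 2.19% and 2.75%. The lowest, on chromosomes 9 and 11 (69.8%), came with 4.80% and 5.68%. The order did not hold throughout: chromosomes 17 and 13, with 5.02% and 4.87%, had 77.7% and 78.3% unmet, and chromosome 5, with 3.48%, had 73.8%. DNMT1 KO domains belong to the rule, so these values are a description.

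**Figure D5:**
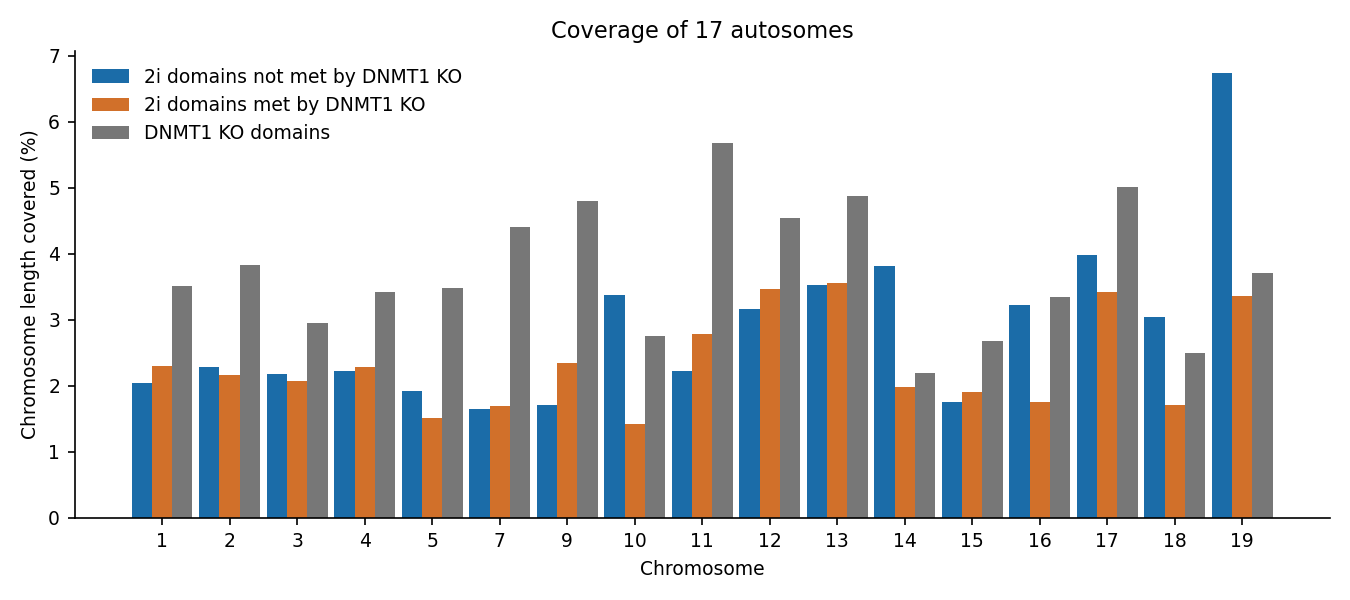
Percent of the length of each of 17 autosomes covered by unmet 2i domains (blue), met 2i domains (orange) and DNMT1 KO domains (grey). Chromosome 19 had the highest coverage by unmet domains, 6.74%, and chromosome 7 the lowest, 1.65%.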

How the data were processed

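The analysis used 6 lists of H2A.X domains deposited by the authors, each from a pair of libraries, with 8 samples of 1 library each. The submitters' processing notes name Bowtie2 2.0.6 and the build mm9. The sources used here do not give the domain caller, its settings or depth scaling. Beside its position and mark, a deposited domain has a signed score and a second score, both made by the authors, with no stated unit. These scores were compared only inside a list.

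Overlap by any base, covered bases, distances and coverage in bins of 10 kb up to 500 kb from domain centres were computed with Python 3.11.15, NumPy 2.4.6 and pandas 2.3.3. Overlap and distance were tested on simulated data. Chromosome lengths were taken from the lists' reach, less the first 3 Mb, which hold no 2i domain of the 17 autosomes. Shares carry Wilson 95% intervals, and background shares refer to all 4628 2i domains there, unmet ones included. No test was made.

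The domains and comparisons were chosen with earlier results of these data known. Named regions are the longest, the highest scoring, the longest per frequent combination and per rare side, and those nearest to and farthest from DNMT1 KO. Ties and the 4 domains meeting both TDG control and TKO were added after their values were seen. Gene names and sequences were not used, since the tables at hand are on GRCm38.p6.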

Additional observations from a re-analysis of the deposited data

How the results depend on the processing

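The number and median length of unmet domains and the shares meeting 8 sides of 4 lists were recomputed under 5 alternatives. Of these 50 values, 40 stayed within the 95% interval of the reported share or median, or for the number within 1.5 times. An overlap of at least 50% of the shorter domain lowered the PKCi share from 56.5% to 53.2% and the SRCi share from 52.2% to 45.3%. Keeping the 50% of 2i domains with the score most toward 2i left 2008 unmet domains with a median of 5 kb. There the shares were 70.7% for PKCi, 62.2% for SRCi, 1.84% and 1.89% for 2i over PKCi and over SRCi, and 25.9% for TKO control. Fewer and shorter domains follow from that choice, since short domains have the more extreme scores; for the rest the cause was not tested. Without chromosome 11 the TKO control share was 20.3%. Counting 2i domains within 10 kb of DNMT1 KO as met, and leaving out chromosome 19, the latter chosen after seeing the data, moved none of the 10 values beyond these bounds. No paired analysis was possible because the libraries have no replicates. What sequencing depth limits could not be assessed, since the lists give none.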

Other observations

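Unmet domains were spread over nearly all of the 17 autosomes. Of 215 windows of 10 Mb, 1 held none, and the median was 15 and the maximum 47. The fullest windows were chromosome 11, 23000001 to 33000000, with 47 unmet and 11 met domains, and chromosome 18, 3000001 to 13000000, with 45 and 4. By covered length the fullest was chromosome 19, 3000001 to 13000000, at 11.1%, followed by chromosome 19, 33000001 to 43000000, at 9.66%, where those on chromosomes 11 and 18 had 7.62% and 9.34%. These windows were picked after their values were seen.

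Unmet domains seldom lay within 10 kb of another 2i domain. The gap to the nearest other 2i domain had a median of 107 kb (quartiles 40 and 253 kb), with 24 unmet domains (0.668%) within 10 kb of one and 1743 (48.5%) within 100 kb. For 540 (15.0%) that nearest neighbour was a met domain, where met domains were 22.4% of all 2i domains. The gaps were measured from unmet domains only, so whether they differ from those of met domains was not tested. The last 5 Mb of the chromosomes, 3.97% of their length, held 3.90% of unmet and 4.15% of met domains, and the first 5 Mb after the start held 5.62% and 5.51%.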
